A study of Gallus gallus with 20 samples.

Results

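The solute carrier genes that the liver of laying hens expresses were selected on their measured TPM: all genes whose symbol begins with SLC and a number and whose abundance reached at least 5 TPM in at least 4 of 20 libraries. TPM is a relative abundance per transcript length, so levels of different genes can be set side by side on this scale. The rule selected 162 of the 302 such genes in a table of 21749 genes. Because the rule used the TPM values themselves, the levels below are a description of the selected genes. The rule did not use the group labels, but a gene that is low in some groups could pass through the others. The livers came from Guangxi Ma chickens, a local breed, and the libraries form 5 groups of 4: week 32, week 50 with high laying performance (week 50 high), week 50 with low laying performance (week 50 low), week 72 with high laying performance (week 72 high) and week 72 with low laying performance (week 72 low). All groups share the tissue, RNA isolated with RNAiso Plus and libraries enriched for mRNA, and no treatment or genotype is named. The sample labels give high laying at week 32 while the series description names no laying class there, so that group is called by its age. Nothing in the labels states that the 4 libraries of each group are from different hens, and p-values therefore reflect spread among samples that may be technical.

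Solute carriers move small molecules across membranes without hydrolysing ATP themselves, either down a gradient or coupled to the movement of sodium, protons or a second substrate. In hepatocytes they set the supply of amino acids, the exchange of glucose with blood, the traffic of metabolites into and out of mitochondria, the uptake and export of iron, zinc and copper, and the passage of organic anions and bile acids. In the laying hen the liver also makes yolk lipoproteins and vitellogenin, a load that draws on amino acid, lipid and mineral transport.

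Per library the listed genes added up to 764047 to 852815 TPM, read depth is unknown, and Spearman correlations between libraries over 12808 tested genes ranged from 0.898 to 0.965. The median correlation with the other libraries was lowest in week 72 low replicate 2 (0.923) and week 50 low replicate 3 (0.923), followed by week 50 high replicate 1 (0.928). All 6 hepatocyte markers were present, with summed levels of 16609.8 to 59413 TPM. The least correlated libraries had the lowest of these sums. They were 16609.8 TPM in week 50 high replicate 1, 20329.8 TPM in week 50 low replicate 3 and 23304.2 TPM in week 72 low replicate 2. Week 50 low replicate 3 had the highest sums of 5 erythroid markers (3784 TPM), 4 B or plasma cell markers (1254 TPM) and 7 macrophage markers (5045 TPM). Some groups differed as a whole. Erythroid sums were 167 to 370 TPM at week 32, 665 to 948 in week 72 high and 791 to 1505 in week 72 low. Sums of 6 T or NK cell markers were 59.6 to 77.1 TPM at week 32 and 123 to 198 in week 50 high. For each list the libraries of the remaining groups overlapped those of week 32. The part of these cells in the comparisons below was not tested. In bulk liver RNA, fewer cells of a type and less RNA per cell cannot be told apart.

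Expression of the carriers was broad across groups. Of the 162 genes, 112 reached 5 TPM in all 20 libraries, 37 in 10 to 19 libraries and 13 in 4 to 9. At least 1 library of every group was at that level for 151 genes, 9 genes lacked such a library in 1 group and 2 genes lacked one in 2 groups. Genes lacking one, SLC4A5, SLC19A2 and SLC16A12 among them, met the rule through the groups where they are higher. Their differences from the lacking groups are therefore not independent of the selection. Mean TPM over 20 libraries exceeded 100 for 20 genes, lay between 10 and 100 for 89 and was under 10 for 53. Together the 162 genes summed to between 6082 TPM in week 50 low replicate 4 and 9379 TPM in week 50 high replicate 3, which is 0.772% to 1.10% of the listed TPM. The 10 most abundant genes of a library held 35.3% to 45.1% of that sum. Among the 162 genes, 4 are no carriers but proteins named for one (SLC9A3R1, SLC9A3R2, SLC7A6OS and SLC4A1AP). The other 158 are counted as carriers by their family number, with subunits such as SLC3A1 included.

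The rule's edge passes through genes of low abundance. Ranked by their 4th highest TPM, the genes just inside were SLC36A1 (5.83 TPM), SLC22A15L (5.65 TPM), SLC4A4 (5.48 TPM), SLC44A5 (5.28 TPM) and SLC6A4 (5.21 TPM), and those just outside were SLC26A9 (4.90 TPM), SLC38A1 (4.56 TPM), SLC12A8 (4.40 TPM), SLC25A24 (4.37 TPM) and SLC45A3 (4.36 TPM). Several other carriers that were looked up fell below it, some of them far below. The mean was 0.0159 TPM for SLC10A1, the sodium-dependent bile acid importer of mammalian hepatocytes, 0.0139 TPM for SLC22A7, an organic anion transporter, and 0.519 TPM for SLC13A5, a plasma membrane citrate importer. SLC7A11, the cystine and glutamate exchanger, averaged 0.0768 TPM, and SLC25A15, the ornithine carrier of the urea cycle, 2.16 TPM. In mammals the urea cycle is run by the liver, whereas birds excrete uric acid. SLC25A12, an aspartate and glutamate carrier, averaged 1.89 TPM, against 106 TPM for its paralog SLC25A13. SLC25A11, SLC39A14, SLC3A2, SLC1A5 and SLC43A1 were not analysed here.

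By family, the mitochondrial SLC25 carriers made up 29 genes and 31.1% of the members' TPM. Amino acid and peptide carriers followed with 25 genes and 15.7%, metal carriers with 21 genes and 12.4%, monocarboxylate and lipid carriers with 10 genes and 8.67%, organic anion, cation and bile acid carriers with 14 genes and 7.84%, and glucose and sugar carriers with 17 genes and 7.29%. Nucleotide sugar carriers of the SLC35 family held 6.43% in 15 genes, inorganic ion and pH carriers 5.59% in 15 genes, and vitamin, choline and nucleoside carriers 2.21% in 12 genes. The share of a class that met the rule differed: 29 of 36 SLC25 genes and 21 of 28 metal carriers did, against 25 of 58 amino acid carriers and 15 of 52 inorganic ion carriers. Classes follow the SLC family number, so a few genes sit with relatives that carry another substrate. Organic anion importers of the SLCO family have no number after SLC, so they are outside the rule and these shares.

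**Figure D1:**
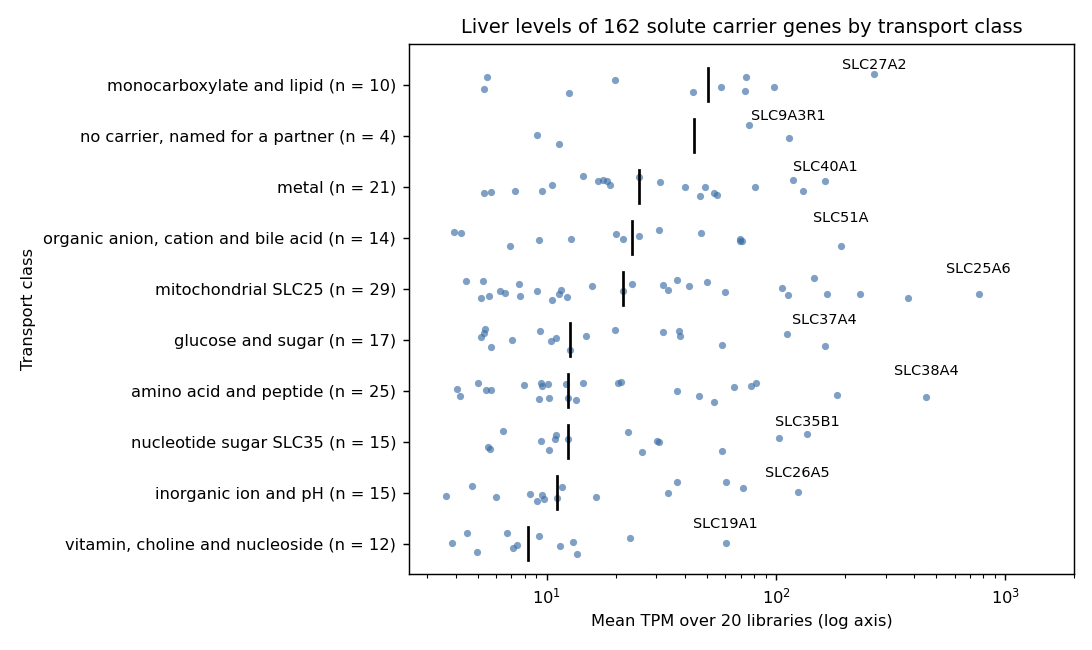
Mean TPM over 20 libraries (log axis) of each of the 162 solute carrier genes, by transport class; each point is a gene, the bar is the class median and the label names the gene with the highest mean. SLC25A6 lies highest of all genes at 765 TPM, and SLC38A4 leads the amino acid carriers at 451 TPM.

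No solute carrier gene passed an adjusted p of 0.05 in limma's moderated test on log2(TPM + 1), with Benjamini-Hochberg adjustment over 12808 genes, in any of 11 tests. The share of all tested genes called was itself small: 0.00781% for any difference between the 5 groups, 0% for high minus low at week 50, 0.00781% for high minus low at week 72, 0.00781% for the mean of both and 0% for the difference of high minus low between ages. It was 0% for week 50 high, 0% for week 50 low, 0.00781% for week 72 high and 0% for week 72 low, each against week 32. It was 0% for week 72 high against week 50 high and 0.039% for week 72 low against week 50 low. The smallest adjusted p of a solute carrier was 0.102, for SLC4A5 in the last comparison, a gene that met the rule only through week 32 and week 50 libraries. Without the 3 least correlated libraries, a setting chosen after seeing the data, limma again called 0 members in each of the 11 tests.

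At an unadjusted p under 0.05, 13 of the 162 genes (8.02%) differed between any of the 5 groups, against 8.88% of all genes tested. In high minus low laying at week 50, 4 were higher and 2 lower (2.47% and 1.23%), against 1.99% and 0.976% of all genes. At week 72, 8 were higher and 2 lower (4.94% and 1.23%), against 3.65% and 1.62%. Averaged over both ages, 13 were higher and 3 lower (8.02% and 1.85%), against 4.68% and 1.76%, and the difference between ages gave 1 in each direction (0.617%), against 1.23% and 1.15%. Most of these shares lie near those of all genes. Against week 32, 15 genes were higher and 0 lower in week 50 high (background 8.49% and 1.53%), 7 higher and 2 lower in week 50 low (6.72% and 2.19%), 8 higher and 1 lower in week 72 high (2.92% and 2.3%), and 8 higher and 8 lower in week 72 low (3.29% and 4.4%). From week 50 to week 72, 0 were higher and 2 lower among high layers (0.586% and 4.01%), and 4 higher and 6 lower among low layers (1.93% and 6.6%). Without the 3 least correlated libraries, 12665 genes were tested and the share at this level was higher over all genes too, except in week 50 low against week 32. Members then numbered 24 for any difference (14.8%, against 11.3% of all genes), 11 for high minus low at week 50 (6.79%, against 5.83%), 18 at week 72 (11.1%, against 8%), 22 for their mean (13.6%, against 9.06%) and 13 for the difference between ages (8.02%, against 5.26%). Against week 32 they were 25 in week 50 high (15.4%, against 15.7%), 8 in week 50 low (4.94%, against 7.01%), 16 in week 72 high (9.88%, against 7.23%) and 16 in week 72 low (9.88%, against 8.09%). From week 50 to week 72 they were 5 among high layers (3.09%, against 7.52%) and 12 among low layers (7.41%, against 9.45%). With all libraries kept, 1.85% of members (1.78% of all genes) showed no overlap of high and low layers at week 50. At week 72 the share was 1.85% (2.92%). Against week 32 the shares at week 50 were 4.94% (7.89%) for high layers and 3.09% (4.34%) for low layers. For week 72 they were 3.7% (4.18%) and 3.7% (3.71%). For week 72 minus week 50 they were 2.47% (3.58%) among high layers and 3.7% (3.17%) among low layers. In these shares of genes without overlap, members exceeded all genes little or not at all.

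The split into higher and lower depends on how libraries are scaled. With median-ratio scaling in place of TPM as deposited, the median log2 difference of all genes for week 50 high against week 32 moved from 0.13 to -0.01, and the members' split from 15 and 0 to 8 and 2 (all genes 4.72% and 3.93% under that scaling). The same scaling gave splits, higher then lower, of 2 and 2 for high minus low at week 50 (all genes 1.49% and 1.59%), 6 and 2 at week 72 (3.65% and 2.77%) and 9 and 6 for their mean (3.89% and 3.57%). Against week 32 it gave 6 and 6 in week 50 low (4.83% and 4.33%), 8 and 3 in week 72 high (3.22% and 3.27%) and 8 and 7 in week 72 low (4.22% and 4.98%). From week 50 to week 72 it gave 1 and 1 among high layers (1.56% and 2.52%) and 6 and 5 among low layers (3.83% and 5.10%). In either direction together the members' share under this scaling lay between 1.23% and 9.26% over the 11 tests, and that of all genes between 2.78% and 9.39%. The median log2 difference over the 162 genes, as deposited, was 0.12 for high minus low at week 50 (all genes 0.05), 0.05 at week 72 (0.03), 0.12 for week 50 high against week 32 (0.13) and -0.02 for week 72 low against week 50 low (-0.09).

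**Figure D2:**
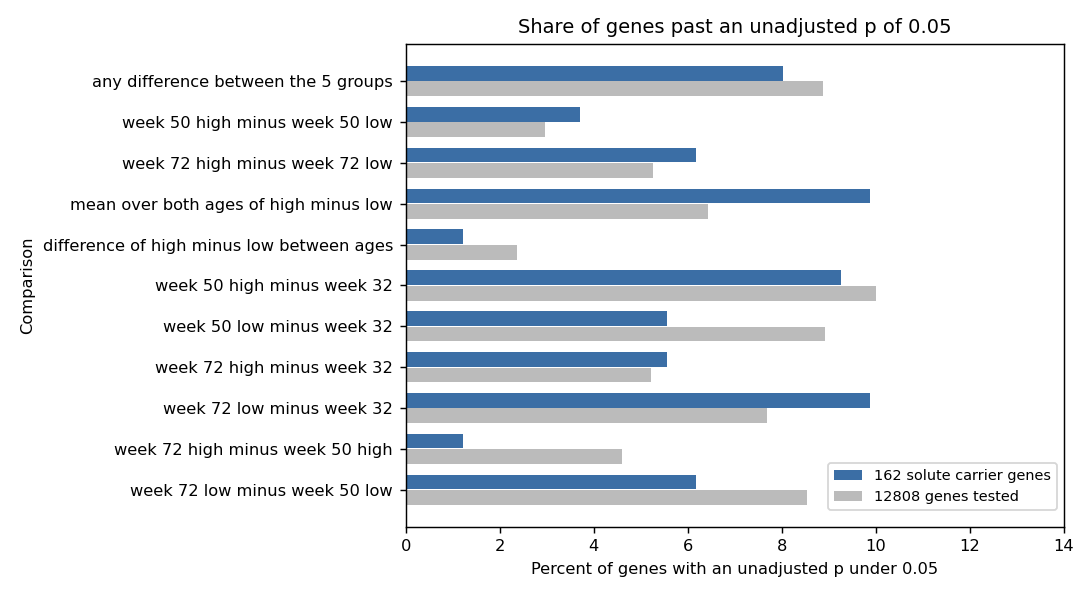
Percent of genes with an unadjusted p under 0.05 in either direction, for the 162 solute carrier genes (blue) and all 12808 genes tested (grey), in each of 11 tests. The widest excess of the solute carriers is in the mean of high minus low, 9.88% against 6.43%, and in week 72 high minus week 50 high they lie lower, 1.23% against 4.59%.

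Amino acid and peptide carriers showed no called change, and their summed level was 1311 ± 288 TPM (SD, n = 4) at week 32, 1236 ± 280.2 in week 50 high, 1059.8 ± 204 in week 50 low, 1084 ± 97.99 in week 72 high, and 1164 ± 114 in week 72 low. These means differ by less than 1 SD of the week 32 group, which is the largest SD of the 5 groups. The week 32 mean lay above each week 72 mean by more than the SD of that week 72 group. The leading gene was SLC38A4, a sodium-coupled neutral amino acid importer typical of hepatocytes, on GRCg7b chromosome 1, 31242296 to 31274563. SLC38A4 measured 754, 412, 395 and 706 TPM at week 32, 328, 432, 618 and 419 in week 50 high, 504, 303, 309 and 270.5 in week 50 low, 523, 408, 386 and 394 in week 72 high, and 445, 326, 441 and 642 in week 72 low. The highest library was week 32 replicate 1 and the lowest week 50 low replicate 4, and every pair of groups overlapped. Its lowest unadjusted p was for week 50 low against week 32, where the log2 difference was -0.69 ± 0.27 (SE, adjusted p = 0.478).

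SLC38A3, a glutamine transporter of the same family, averaged 184 TPM (range 114 to 297), and SLC38A2, a neutral amino acid importer that responds to amino acid supply in mammalian cells, 77.6 TPM (range 26.6 to 179.8). SLC38A2 was among the most variable members, with a within-group SD of 0.81 on the log2 scale. SLC6A6, the taurine transporter, averaged 65.7 TPM (range 24.5 to 117), SLC7A2, a cationic amino acid transporter, 45.9 TPM (range 22.4 to 100.2), and SLC7A5, the large neutral amino acid exchanger, 20.4 TPM (range 7.87 to 72.8). SLC38A2 and SLC38A4 lie near each other on chromosome 1, SLC38A2 at 31126912 to 31141960.

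SLC6A12, a betaine and GABA transporter, had the lowest unadjusted p of the class over the 5 groups. SLC6A12 measured 53.4, 91.6, 51.1 and 21.7 TPM at week 32, 117, 119, 132 and 83.2 in week 50 high, 88.98, 93.2, 87.97 and 80.1 in week 50 low, 59.6, 165, 102 and 62.4 in week 72 high, and 45.9, 78.96, 72.97 and 31.8 in week 72 low. Week 32 replicate 4 was the lowest library and week 72 high replicate 2 the highest, and the libraries of week 32 overlapped those of each other group. Both week 50 groups lay above every week 72 low library. Against week 32 the log2 difference was 1.18 ± 0.37 (SE, adjusted p = 0.364) in week 50 high and 0.87 ± 0.37 in week 72 high. SLC7A3, a cationic amino acid transporter of lower abundance, had its highest group mean in week 50 low. The week 50 low libraries overlapped those of week 50 high, week 72 high and week 72 low. SLC7A3 measured 5.74, 5.76, 7.76 and 6.89 TPM at week 32, 7.84, 6.18, 8.34 and 4.86 in week 50 high, 8.81, 11.7, 12.4 and 8.08 in week 50 low, 8.66, 5.79, 9.16 and 6.61 in week 72 high, and 8.96, 10.8, 8.17 and 6.001 in week 72 low. Every week 50 low library exceeded every week 32 library, and the log2 difference was 0.57 ± 0.21 (SE, adjusted p = 0.458), while week 50 high minus week 50 low was -0.53 ± 0.21 (SE, adjusted p = 1) with overlapping groups.

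SLC6A2, known as the noradrenaline transporter, differed at week 72 by 0.87 ± 0.35 (SE, adjusted p = 0.893) in high minus low, with means of 7.71 and 3.97 TPM and overlapping libraries. SLC1A1, a glutamate and aspartate importer, ranged from 3.02 to 24.5 TPM, and its within-group SD of 0.86 was again high. Its high minus low difference at week 72 was -1.01 ± 0.55 (SE, adjusted p = 0.982), with overlapping libraries. SLC3A1, the heavy subunit that escorts a cystine and dibasic amino acid transporter to the membrane, averaged 9.49 TPM (range 2.02 to 19.1). Of the 25 genes, 1 was at an unadjusted p under 0.05 in each of the high minus low comparisons at week 50 and week 72, where 2.97% and 5.27% of all genes tested were at that level.

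Glucose and sugar carriers likewise had no called change. Their summed level was 506 ± 56.3 TPM (SD, n = 4) at week 32, 619.6 ± 142 in week 50 high, 513 ± 69.97 in week 50 low, 558 ± 57.4 in week 72 high, and 535 ± 119 in week 72 low. SLC37A4, the glucose-6-phosphate transporter that feeds glucose release from the endoplasmic reticulum, led with 163 TPM (range 93.8 to 316), with the highest library in week 50 high replicate 3. Sums of a class were not tested. SLC2A2 (GLUT2), the low-affinity facilitative transporter through which hepatocytes exchange glucose with blood, followed, on chromosome 9, 19408312 to 19416894. SLC2A2 measured 54.1, 212, 117 and 108 TPM at week 32, 135, 177, 176 and 78.8 in week 50 high, 43.9, 95.9, 61.8 and 132 in week 50 low, 108, 122, 116 and 178 in week 72 high, and 71.97, 103, 77.7 and 57.4 in week 72 low. Low layers lay on average below high layers at both ages, but the libraries overlapped at week 50 while at week 72 the lowest high-layer library (108 TPM) exceeded the highest low-layer one (103 TPM). The log2 difference of high minus low was 0.81 ± 0.37 (SE, adjusted p = 1) at week 50, 0.75 ± 0.37 (SE, adjusted p = 0.929) at week 72 and 0.78 ± 0.26 (SE, adjusted p = 0.601) as the mean of both ages.

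SLC2A8, an intracellular hexose transporter, averaged 38.03 TPM (range 27.9 to 48.4) and had one of the narrower spreads. Week 32 libraries lay between 27.9 and 33.96 TPM and the week 72 high libraries between 36.4 and 45.5 TPM, without overlap, at a log2 difference of 0.42 ± 0.17 (SE, adjusted p = 0.908). SLC2A9, which carries urate in mammals, averaged 32.1 TPM (range 9.86 to 59.2), and SLC2A5, the fructose transporter, 7.05 TPM (range 1.84 to 13.2). SLC2A1 (GLUT1), the glucose transporter of most other tissues, averaged 5.14 TPM (range 2.84 to 9.15), and its high minus low difference averaged over ages was -0.43 ± 0.19 (SE, adjusted p = 0.766). SLC5A6, placed here by family although it carries biotin and pantothenate, averaged 57.9 TPM (range 29.7 to 169) with the highest library in week 72 low replicate 2, and SLC5A3, a myo-inositol importer, 37.6 TPM (range 18.05 to 60.8). SLC2A11L5 and SLC2A14 have close paralogs, so reads may have been split among copies and their levels are uncertain.

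The mitochondrial SLC25 family held the most abundant members. Its summed level was 2273 ± 133 TPM (SD, n = 4) at week 32, 2330.5 ± 396 in week 50 high, 2227 ± 188 in week 50 low, 2296 ± 158 in week 72 high, and 2499.7 ± 461 in week 72 low. The ADP/ATP carriers, which exchange ATP made in mitochondria for cytosolic ADP, came from 3 genes, and SLC25A6 supplied most of their TPM. It held 64.7% to 79.6% of their sum per library (median 73.8%), against 16.2% to 31.4% for SLC25A5 (22.1%) and 2.84% to 7.33% for SLC25A4 (4.35%). SLC25A6, on chromosome 1, 129261308 to 129264869, ranged from 491 to 1505 TPM, with week 72 low replicate 1 highest. The 3 are close paralogs, so reads may have been divided among them and the split is uncertain. SLC25A3, the phosphate carrier, averaged 147 TPM (range 105 to 188) and SLC25A20, the carnitine and acylcarnitine carrier of fatty acid oxidation, 167 TPM (range 125 to 261), both with a narrow spread. Within-group SDs were 0.205 and 0.201 on the log2 scale.

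SLC25A1, the citrate carrier that exports acetyl units for fatty acid and sterol synthesis, was the next most abundant of the family, on chromosome 15, 45647 to 59382. SLC25A1 measured 437, 469, 312 and 293 TPM at week 32, 453, 468, 452 and 413 in week 50 high, 357, 358, 337 and 436 in week 50 low, 323, 439.7, 353 and 471 in week 72 high, and 290.4, 318, 323 and 252 in week 72 low. Week 50 high had 4 libraries within 413 to 468 TPM, and the week 72 low libraries were the lowest group, with 1 of them at 323 TPM, equal to the lowest week 72 high library to 3 digits. The log2 difference of high minus low was 0.41 ± 0.18 (SE, adjusted p = 0.929) at week 72 and 0.34 ± 0.13 (SE, adjusted p = 0.666) over both ages. SLC25A10, the dicarboxylate carrier, averaged 37.01 TPM (range 18.98 to 68.02) and was higher in every week 50 high library than in any week 32 library, at 0.78 ± 0.28 (SE, adjusted p = 0.374). Its week 50 low libraries also all exceeded those of week 32, at 0.68 ± 0.28 (SE, adjusted p = 0.496). SLC25A13, an aspartate and glutamate carrier of the malate-aspartate shuttle, averaged 106 TPM (range 73.3 to 184), and SLC25A29, a carrier of basic amino acids, 113 TPM (range 21.6 to 217) with a within-group SD of 0.86.

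SLC25A22, a mitochondrial glutamate carrier on chromosome 5, 15405339 to 15440979, had the lowest F-test p of all 162 genes (adjusted p = 0.187). SLC25A22 measured 21.8, 16.99, 13.4 and 15.97 TPM at week 32, 17.3, 15.03, 15.1 and 9.52 in week 50 high, 16.9, 12.1, 11.5 and 11.1 in week 50 low, 6.22, 13.7, 13.1 and 9.44 in week 72 high, and 5.45, 6.81, 8.52 and 4.38 in week 72 low. All 4 week 72 low libraries lay below every week 32 library and every week 50 low library, and they overlapped week 72 high, whose lowest library was 6.22 TPM. The log2 difference was -1.32 ± 0.25 against week 32 (SE, unadjusted p = 3.46e-05, adjusted p = 0.141), -0.95 ± 0.25 (SE, adjusted p = 0.172) against week 50 low and 0.65 ± 0.25 (SE, adjusted p = 0.835) for high minus low at week 72. Without week 72 low replicate 3 the first of these was -1.46 ± 0.26 with an adjusted p of 0.0108, within a range of adjusted p from 0.0108 to 0.412 over 28 alternative settings. That replicate, at 8.52 TPM, was the highest of its group, so leaving it out widens the difference by construction. Its gene span overlaps those of MIR1663 and LOC121113257 in the table used, which gives no strand. SLC25A34 differed at 0.76 ± 0.29 (SE, adjusted p = 0.463) for week 50 low against week 32 with no overlap, on low levels (3.37 to 12.5 TPM).

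**Figure D3:**
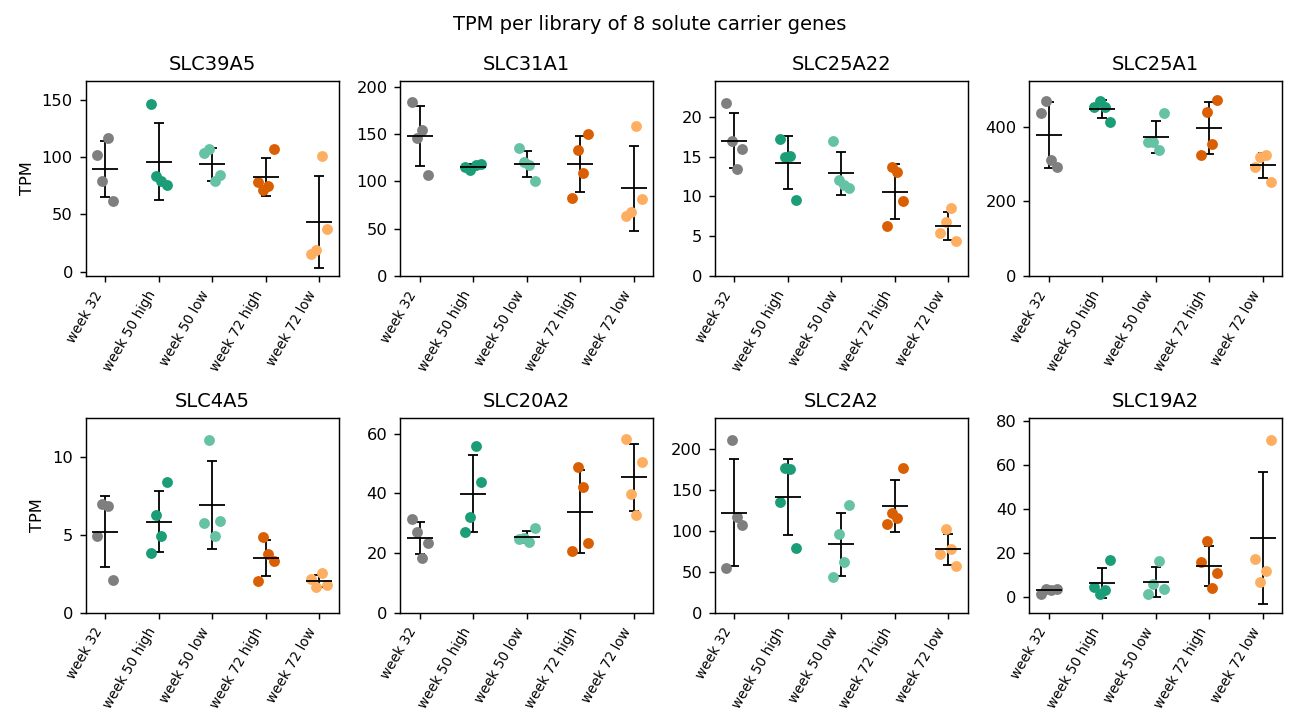
TPM in each library (points) of 8 solute carrier genes by group, with the group mean (horizontal bar) and SD (error bar, n = 4). In week 72 low, SLC39A5 measured 15.7, 18.9 and 37.1 TPM in 3 libraries and 101 TPM in replicate 3, and the 4 SLC25A22 libraries lie below every week 32 library.

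Metal carriers had their lowest summed level in week 72 low. The sums were 988 ± 96.9 TPM (SD, n = 4) at week 32, 995 ± 60.6 in week 50 high, 878 ± 133 in week 50 low, 929 ± 34.8 in week 72 high, and 804 ± 133 in week 72 low. SLC40A1 (ferroportin), the iron exporter, led with 164 TPM (range 88.4 to 274), followed by SLC41A1, a magnesium transporter (130.5 TPM (range 67.8 to 239.8)), SLC31A1, the high-affinity copper importer (118 TPM (range 62.9 to 183)), and SLC39A5, a zinc importer (81.1 TPM (range 15.7 to 146)). In week 72 low minus week 32, 7 of the 21 genes had a positive difference and the median was -0.17, with 0 higher and 4 lower at an unadjusted p under 0.05. Over all genes tested the median of that comparison was 0.00, 50.2% were positive, and 3.29% were higher and 4.4% lower at that level. In it 13 of 17 glucose carriers, 11 of 14 organic anion carriers, 14 of 29 SLC25 carriers and 11 of 25 amino acid carriers were positive. This is 1 class in 1 of 10 comparisons, and class counts were not tested. Among the 4 lower genes, SLC39A5 and SLC31A1 followed the same week 72 low libraries, as given below.

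SLC39A5 lies on chromosome 34, 1442922 to 1447714, with no overlapping gene in the table used. SLC39A5 measured 102, 78.9, 117 and 61.6 TPM at week 32, 146, 83.6, 78.6 and 75.1 in week 50 high, 104, 107, 78.8 and 84.3 in week 50 low, 78.1, 71.2, 74.8 and 107 in week 72 high, and 15.7, 18.9, 101 and 37.1 in week 72 low. Replicates 1, 2 and 4 of week 72 low were below every other library of the series, while replicate 3 lay among the other groups. High minus low at week 72 was 1.29 ± 0.40 (SE, adjusted p = 0.609), week 72 low minus week 50 low -1.47 ± 0.40 (SE, adjusted p = 0.198), and week 72 low minus week 32 -1.39 ± 0.40 (SE, adjusted p = 0.404). The change of high minus low between ages was 1.30 ± 0.56 (SE, adjusted p = 1). The yolk precursor gene VTG2 was split the same way, at 725, 95.1, 13572 and 241 TPM in week 72 low replicates 1 to 4, and its part in the result was not tested.

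Leaving out week 72 low replicate 3 gave calls. SLC39A5 then differed by 1.83 ± 0.29 in high minus low at week 72 (adjusted p = 0.00264), by -2.01 ± 0.29 against week 50 low (adjusted p = 0.00103) and by -1.92 ± 0.29 against week 32 (adjusted p = 0.00233). Over 28 alternative settings the adjusted p ranged from 0.00264 to 1, from 0.00103 to 0.693 and from 0.00233 to 0.775 in these comparisons. The library was left out as 1 of 20 such omissions, and since it is the highest of its group, its removal widens the difference by construction. SLC31A1, on chromosome 17, 2151949 to 2176049, was arranged alike. SLC31A1 measured 183, 146, 154 and 106 TPM at week 32, 115, 111, 117 and 119 in week 50 high, 135, 121, 117 and 100.2 in week 50 low, 82.2, 133, 108 and 149.9 in week 72 high, and 62.9, 67.1, 159 and 81.5 in week 72 low. Week 72 low replicate 3 was the highest of its group and the other three were below every library of the other groups. Its log2 difference from week 32 was -0.74 ± 0.25 (SE, adjusted p = 0.492), and -1.04 ± 0.21 without that replicate (adjusted p = 0.0259, range 0.0259 to 0.828). SLC31A1 shares its span with CDC26.

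SLC11A2 (DMT1), a proton-coupled importer of ferrous iron, was lower in week 72 low (12.9 TPM) than in week 72 high (19.5 TPM), at 0.56 ± 0.21 (SE, adjusted p = 0.846) for high minus low with overlapping libraries. SLC41A1 lay lower in every week 50 low library (67.8 to 119 TPM) than in any week 32 library (141 to 202 TPM), at -0.82 ± 0.28 (SE, adjusted p = 0.431). Its week 72 low libraries also all lay below those of week 32, at -0.68 ± 0.28 (SE, adjusted p = 0.558). SLC11A1, an exporter of divalent metals from the phagosome of macrophages, had its highest value in week 50 low replicate 3. SLC11A1 measured 3.89, 4.25, 3.82 and 5.095 TPM at week 32, 7.302, 8.73, 14.3 and 5.18 in week 50 high, 9.86, 8.94, 21.6 and 4.95 in week 50 low, 4.52, 8.06, 7.49 and 4.75 in week 72 high, and 1.59, 10.4, 6.38 and 3.701 in week 72 low. Every week 50 high library exceeded every week 32 library, at a log2 difference of 0.83 ± 0.40 (SE, adjusted p = 0.500). Its difference from week 32 was 1.07 ± 0.40 (SE, adjusted p = 0.474) in week 50 low, with groups that overlapped, and 0.72 (adjusted p = 0.732, range over 28 settings 0.115 to 0.953) without the 3 least correlated libraries. The 7 macrophage markers, none of them at 0 in all libraries, summed to 1736 to 2241 TPM at week 32, 2281 to 3887 in week 50 high, 1677 to 5045 in week 50 low, 1582 to 3162 in week 72 high and 1447 to 2552 in week 72 low. Week 50 low replicate 3 was highest in both, and the part of these cells in the result was not tested. SLC30A1, a zinc exporter, and SLC30A10, a manganese exporter in mammals, averaged 46.6 TPM (range 28.3 to 88.1) and 55.2 TPM (range 32.4 to 82.3), and no difference of either had an unadjusted p among the lowest 4 of its comparison.

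Organic anion, cation and bile acid carriers summed to 531 ± 38.98 TPM (SD, n = 4) at week 32, 613 ± 111 in week 50 high, 609.9 ± 82.9 in week 50 low, 558 ± 53.7 in week 72 high, and 609 ± 30.6 in week 72 low. SLC51A and SLC51B encode the subunits of the basolateral organic solute exporter OSTα-OSTβ, which releases bile acids to blood. SLC51A averaged 192 TPM (range 119 to 354) and SLC51B 69.8 TPM (range 30.5 to 127). SLC22A5, the carnitine importer, averaged 46.9 TPM (range 18.2 to 134). The sums of this class leave out the SLCO importers of organic anions, whose levels are given further below.

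SLC47A1 (MATE1), a proton-coupled exporter of organic cations, had the lowest p among members lower in high layers, over both ages together. SLC47A1 measured 3.52, 5.08, 11.8 and 19.3 TPM at week 32, 4.42, 3.78, 7.87 and 6.72 in week 50 high, 16.2, 8.701, 17.1 and 7.503 in week 50 low, 3.56, 3.94, 8.58 and 3.34 in week 72 high, and 11.8, 5.25, 12.1 and 23.9 in week 72 low. Within each age the high-layer mean lay below the low-layer mean, with overlapping libraries. High minus low was -0.96 ± 0.45 (SE, adjusted p = 1) at week 50, -1.20 ± 0.45 (SE, adjusted p = 0.827) at week 72 and -1.08 ± 0.32 (SE, adjusted p = 0.585) over both. SLC22A13L and SLC22A15L, the first at 71.3 TPM (range 27.5 to 114), belong to a family of similar genes and are uncertain in the same way as the sugar carriers named above.

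Monocarboxylate and lipid carriers summed to 538 ± 33.3 TPM (SD, n = 4) at week 32, 702 ± 145 in week 50 high, 606 ± 205 in week 50 low, 627 ± 89.1 in week 72 high, and 809 ± 392 in week 72 low. The highest sum was that of week 72 low replicate 2, at 1373 TPM. SLC27A2, a fatty acid transport protein that also activates very long chain fatty acids, averaged 268 TPM (range 174 to 494). SLC27A4, another fatty acid transport protein, averaged 73.6 TPM (range 38.7 to 170.4) and SLC33A1, the acetyl-CoA carrier of the endoplasmic reticulum, 57.3 TPM (range 35.01 to 100.2). SLC16A1 (MCT1), a lactate and pyruvate transporter, was spread widely. SLC16A1 measured 47.1, 83.2, 73.7 and 59.6 TPM at week 32, 91.9, 66.9, 109.6 and 71.3 in week 50 high, 31.8, 76.5, 76.6 and 19.9 in week 50 low, 84.4, 59.8, 40.3 and 32.7 in week 72 high, and 110.1, 241, 20.4 and 65.04 in week 72 low. Its 241 TPM in week 72 low replicate 2 was 12.1 times the lowest library. SLC16A6, which exports ketone bodies from zebrafish liver, spanned 0.632 to 24.8 TPM, a ratio of 39.3, and had the highest within-group SD of the 162 genes (1.25). SLC16A12, which transports creatine in mammals, differed by 0.62 ± 0.22 (SE, adjusted p = 0.658) in high minus low over both ages. It met the rule only through the groups other than week 72 low.

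Inorganic ion and pH carriers summed to 399.9 ± 45.1 TPM (SD, n = 4) at week 32, 426 ± 37.99 in week 50 high, 408 ± 72.8 in week 50 low, 405 ± 48.97 in week 72 high, and 448 ± 64.9 in week 72 low. SLC26A5, known from mammals as the motor protein of outer hair cells in the inner ear, had the highest level of the class with 124 TPM (range 57.04 to 261). Its span overlaps LOC112533002, and reads of overlapping genes cannot be told apart where the use of strand is not given. SLC8B1, the mitochondrial sodium and calcium exchanger, averaged 71.5 TPM (range 50.6 to 97.4), and SLC9A8, a sodium and proton exchanger of the Golgi, 60.7 TPM (range 26.5 to 99.6). SLC4A5, an electrogenic sodium bicarbonate cotransporter, lies on chromosome 22, 3148236 to 3172040. SLC4A5 measured 4.94, 7.01, 6.85 and 2.104 TPM at week 32, 3.83, 6.26, 4.94 and 8.45 in week 50 high, 5.78, 11.1, 4.93 and 5.93 in week 50 low, 2.06, 4.899, 3.75 and 3.35 in week 72 high, and 2.14, 1.64, 2.52 and 1.795 in week 72 low. Each week 72 low library was below each week 50 low library, while week 72 low overlapped week 32 and week 72 high. No week 72 library reached 5 TPM for SLC4A5, so the gene met the rule through the younger groups. The log2 difference from week 50 low was -1.34 ± 0.30 (SE, unadjusted p = 0.000269, adjusted p = 0.102), and from week 32 -0.96 ± 0.30 (SE, adjusted p = 0.46).

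SLC20A2, a sodium-coupled phosphate importer, had the opposite arrangement. SLC20A2 measured 31.2, 26.9, 18.3 and 23.2 TPM at week 32, 27.1, 32.1, 55.9 and 43.8 in week 50 high, 24.5, 25.1, 23.6 and 28.3 in week 50 low, 20.8, 48.8, 42.2 and 23.2 in week 72 high, and 58.3, 39.9, 32.8 and 50.4 in week 72 low. All 4 week 72 low libraries exceeded all 4 at week 32 and in week 50 low, and the week 50 low libraries were close to each other. Week 72 low minus week 50 low was 0.78 ± 0.27 (SE, adjusted p = 0.36) and minus week 32 0.83 ± 0.27 (SE, adjusted p = 0.485). High minus low was 0.58 ± 0.27 (SE, adjusted p = 1) at week 50 and -0.47 ± 0.27 (SE, adjusted p = 0.987) at week 72, and the change between ages was -1.05 ± 0.38 (SE, adjusted p = 1). SLC20A1, the related phosphate importer, differed by -0.81 ± 0.37 (SE, adjusted p = 0.929) in high minus low at week 72. SLC26A2, a sulfate transporter needed for proteoglycan sulfation, was lower in all week 72 high libraries (4.302 to 8.42 TPM) than in any week 50 high library (9.23 to 15.9 TPM), at -0.63 ± 0.24 (SE, adjusted p = 1). Among low layers it differed by -0.85 ± 0.24 (SE, adjusted p = 0.215).

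Nucleotide sugar carriers of the SLC35 family, which load the Golgi and endoplasmic reticulum with the donors for glycosylation, summed to 463 ± 38.6 TPM (SD, n = 4) at week 32, 527 ± 30.2 in week 50 high, 458 ± 79.98 in week 50 low, 491 ± 17.5 in week 72 high, and 456 ± 65.4 in week 72 low. SLC35B1, which brings ATP into the endoplasmic reticulum in mammalian cells, averaged 136 TPM (range 74.7 to 188). SLC35C2, linked to protein fucosylation in mammalian cells, had the lowest p of the members higher in high layers at week 50. SLC35C2 measured 106, 129.9, 84.02 and 66.6 TPM at week 32, 143, 129.8, 129.6 and 124 in week 50 high, 93.1, 113, 72.8 and 47.1 in week 50 low, 96.01, 125, 105 and 124 in week 72 high, and 95.1, 92.8, 114 and 74.9 in week 72 low. All week 50 high libraries exceeded all week 50 low libraries, while the week 72 groups overlapped. High minus low was 0.75 ± 0.23 (SE, adjusted p = 1) at week 50 and 0.51 ± 0.17 (SE, adjusted p = 0.601) over both ages. SLC35D1, a carrier of UDP-glucuronic acid, differed by 0.61 ± 0.23 (SE, adjusted p = 0.513) in week 72 low against week 32, and leaving out single libraries moved this to between 0.37 and 0.77.

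Vitamin, choline and nucleoside carriers had the lowest share of the 9 carrier classes, with sums of 143 ± 19.4 TPM (SD, n = 4) at week 32, 161 ± 22.8 in week 50 high, 144 ± 8.75 in week 50 low, 194 ± 22.3 in week 72 high, and 183 ± 51.7 in week 72 low. SLC19A1, the reduced folate carrier, averaged 60.2 TPM (range 27.04 to 147). SLC19A2, a thiamine importer, was low at week 32 and scattered elsewhere, and it met the rule only through the groups other than week 32. SLC19A2 measured 1.4998, 3.55, 3.27 and 3.58 TPM at week 32, 4.58, 1.11, 2.94 and 16.6 in week 50 high, 1.09, 5.996, 16.4 and 3.696 in week 50 low, 15.7, 25.6, 3.87 and 10.8 in week 72 high, and 17.2, 6.64, 11.7 and 71.7 in week 72 low. Every week 32 library was below every library of week 72 high and week 72 low, and week 72 low replicate 4 was far above the rest. The log2 difference from week 32 was 1.71 ± 0.72 (SE, adjusted p = 0.908) in week 72 high and 2.30 ± 0.72 (SE, adjusted p = 0.456) in week 72 low, with large errors. SLC29A3, a nucleoside transporter of lysosomes in mammals, was tightest in week 50 high. SLC29A3 measured 6.47, 6.24, 4.22 and 3.85 TPM at week 32, 10.4, 10.8, 9.41 and 9.75 in week 50 high, 5.88, 6.45, 6.596 and 3.37 in week 50 low, 5.58, 7.87, 9.88 and 7.84 in week 72 high, and 6.04, 12.7, 5.14 and 4.69 in week 72 low. The week 50 high libraries exceeded all those of week 50 low and week 32. The log2 difference was 0.79 ± 0.26 (SE, adjusted p = 1) from week 50 low and 0.86 ± 0.26 (SE, adjusted p = 0.355) from week 32. SLC23A1, a sodium-coupled ascorbate importer, averaged 12.96 TPM (range 7.43 to 19.6) and differed by 0.68 ± 0.20 (SE, adjusted p = 0.355) in week 50 high against week 32, with overlapping groups.

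**Figure D4:**
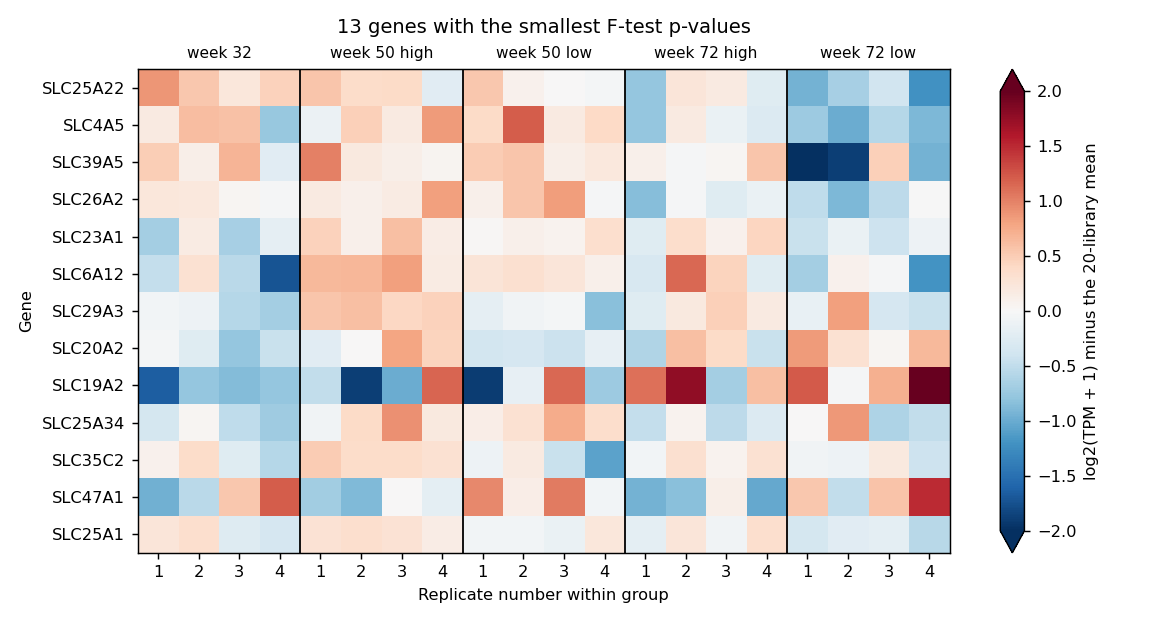
Log2(TPM + 1) minus the gene's mean over 20 libraries, for the 13 solute carrier genes with an unadjusted F-test p under 0.05; columns are libraries by group and replicate number, red above and blue below the mean, with colours capped at -2 and 2. SLC39A5 is darkest blue in week 72 low replicates 1 and 2 and light red in replicate 3.

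The members varied between replicates of a group about as much as other genes. The median within-group SD of log2(TPM + 1) was 0.384 over the 162 genes, 0.362 over all 12808 tested and 0.356 over the 9289 genes at the same 5 TPM bar. Among the narrowest were SLC25A28, a mitochondrial iron importer (0.182), and SLC37A3, a relative of the glucose-6-phosphate transporter (0.188). The widest were SLC16A6 (1.25) and SLC19A2 (1.14). By group mean, week 50 high was highest for 59 members (36.4%, against 33.6% of all genes tested) and week 32 lowest for 51 (31.5%, against 29.5%). Week 50 low was highest for 21 (13%, against 22%) and lowest for 29 (17.9%, against 14.3%). Week 72 low was highest for 34 (21.0%, against 14.7%) and lowest for 40 (24.7%, against 29.1%). Some single libraries held many extreme values. Week 72 low replicate 2, among the least correlated libraries, held the highest value of 30 members. Week 50 low replicate 4 held the lowest of 33 and week 72 low replicate 4 the lowest of 32. Median-ratio scaling gave week 50 low replicate 4 the lowest factor of all libraries, 0.806, and week 72 low replicate 4 a factor of 0.888. The same counts were not made over all genes tested. Whether they are particular to solute carriers, and their part in the orders above, was not tested.

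**Figure D5:**
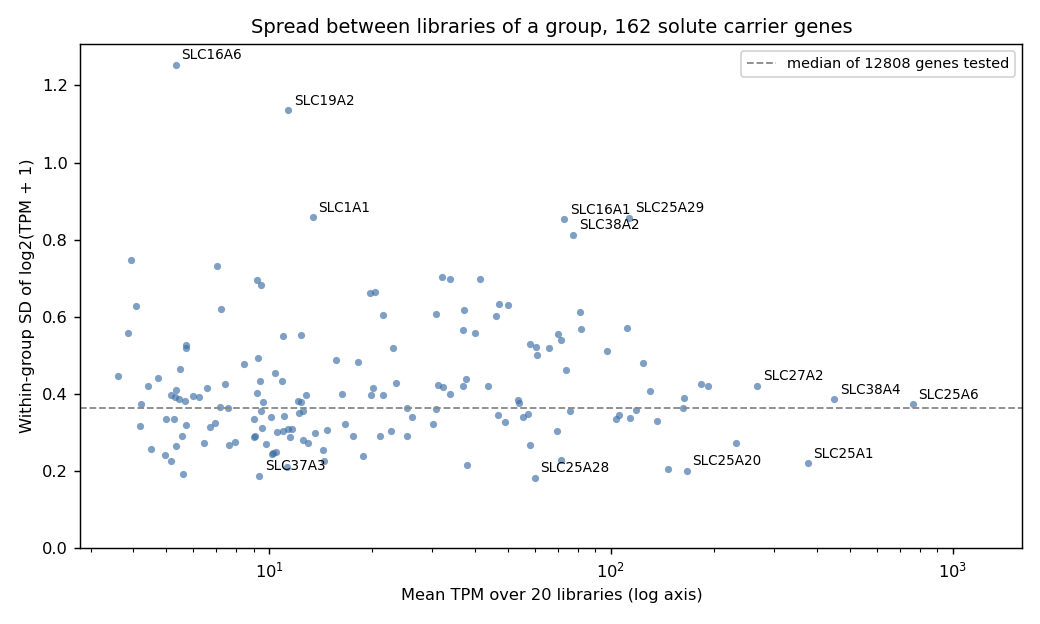
Within-group SD of log2(TPM + 1) (y axis) against mean TPM over 20 libraries (x axis, log) for the 162 solute carrier genes, with the median of all 12808 genes tested as a dashed line. SLC16A6 (1.25) and SLC19A2 (1.14) lie highest and SLC25A28 (0.182) lowest.

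Of the 162 genes, 73 have a span that overlaps that of another gene in the RefSeq table, which carries no strand. All 162 matched that table, on 30 chromosomes. Transporters without an SLC number were listed beside them: of 37 chosen, 33 were in the table and 28 were tested, with 0 called by limma in any comparison and 2 at an unadjusted p under 0.05 over the 5 groups, where 8.88% of all genes tested were. MPC2, a subunit of the mitochondrial pyruvate carrier, averaged 913 TPM (range 681 to 1380.3), above every SLC gene. SLCO1B3 and SLCO1A2, organic anion importers of the SLCO family, averaged 467 TPM (range 263 to 719.7) and 251 TPM (range 90.4 to 467). ABCB11, the canalicular bile salt pump, averaged 55.6 TPM (range 26.8 to 86.99). MFSD2A, a lysophosphatidylcholine importer, differed by -1.38 ± 0.35 (SE, adjusted p = 0.157) in week 72 low against week 50 low, and every week 72 low library (47.4 to 76.7 TPM) was below every week 50 low library (100.1 to 227 TPM). FLVCR2 was low (0.7203 to 5.702 TPM) and differed by 1.06 ± 0.29 (SE, adjusted p = 0.425) in high minus low at week 72.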

How the data were processed

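RNA sequencing of liver was deposited by the authors as a table of TPM per gene and library, and the submitters' processing notes name the genome build GRCg7b. The aligner, counting tool, annotation release, use of strand and filters are not stated in the labels or in the processing notes. TPM keeps no read depth, so counting error is unknown and no count model was used.

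Libraries were grouped by their titles. Positions came from RefSeq genes on GRCg7b, looked up by symbol. The 12808 genes reaching 1 TPM in 4 or more libraries entered limma 3.58.1 in R 4.3.3 as log2(TPM + 1), which shrinks differences of scarce transcripts (a mean per group, 20 libraries, mean-variance trend, 15 residual degrees of freedom, two-sided, Benjamini-Hochberg over all genes tested, called at adjusted p under 0.05). The fit was also run on simulated data with independent noise per gene and library. Those data lack the outlying libraries of this series, so they do not show how many real differences the fit would miss here. Log2 differences carry the SE of the fit and group means the SD over 4 libraries. The solute carriers, their classes and the gene lists were chosen with earlier results of these data known. Named genes were the 4 lowest unadjusted p per direction and comparison, the 4 highest means per class, carriers known from liver, genes at the edge of the rule and up to 4 of the other transporters with the lowest F-test p. SLC25A28, SLC37A3, SLC16A6, SLC7A5, SLC16A12 and ABCB11 were named for their spread, level or role where the rule did not name them. Some genes the rule named are not reported here. No sequence is shown. Alternatives were 2 other scalings, a pseudocount of 0.1, no filter, a filter at 5 TPM, the replicate number as a block, only the groups compared, and each library left out.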

Additional observations from a re-analysis of the deposited data

Results flagged for a closer look

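Outlying libraries were sought on log2(TPM + 1) in 165 groups of 4 libraries (33 members in 5 groups). In 10, a library's gap to the nearest other, as a share of the group's range, exceeded Dixon's critical value for 4 libraries. Chance gives about 1 in 20 such groups, or 8.25 of 165.

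Among high values, SLC39A5, a zinc importer, measured 146.3 TPM in week 50 high replicate 1. SLC38A3, a glutamine transporter, measured 297.2 TPM in week 50 high replicate 3. SLC19A1, the reduced folate carrier, and SLC26A2, a sulfate transporter, measured 72.98 and 15.89 TPM in week 50 high replicate 4. SLC27A2, a fatty acid transport protein, measured 358.4 TPM in week 72 high replicate 2, SLC47A1, an organic cation exporter, 8.58 TPM in week 72 high replicate 3, SLC9A3R2, a scaffold protein, 103.5 TPM in week 72 high replicate 1, and SLC35B1 188.3 TPM in week 32 replicate 3.

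Among low values, SLC19A2, a thiamine importer, measured 1.5 TPM in week 32 replicate 1, and SLC51A, a bile acid exporter subunit, 118.9 TPM in week 72 high replicate 1. No member had every library on opposite sides in the high and low comparisons of both ages.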

How the results depend on the processing

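Of 307 alternative counts of called members, 303 were 0, as in the reported fit, and 4 were above 0. All 4 came from leaving out week 72 low replicate 3, the highest of its group for SLC39A5, SLC25A22 and SLC31A1, which widens the difference by construction. Over the omissions of single libraries the count ranged from 0 to 1 for any difference between the 5 groups, 0 to 1 for high minus low at week 72, 0 to 3 for week 72 low minus week 32 and 0 to 1 for week 72 low minus week 50 low. SLC39A5 was called in each of the 4, with SLC25A22 and SLC31A1 in the third.

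Of 2240 alternatives over 80 log2 differences of 42 named members, 0 reversed and 5 passed the threshold. Of 307 counts at an unadjusted p under 0.05, 43 moved by more than 1.5 times. With the replicate number as a block (replicate block), limma called 0 members in every comparison. The labels do not say what the replicate numbers mark. Over 40 same-numbered pairs the correlation of deviations from group means ran from -0.270 to 0.280 (median 0.0277, 14 over 0.1). Pairs with different numbers had a median of -0.0097, and 6 of 20 libraries correlated best with their own number. Such correlations do not settle whether a number marks a shared hen, batch or day. TPM gives no depth, so the precision of low members, such as SLC4A5 and SLC16A6, is unknown.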

Other observations

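An amino acid response list, which holds targets of the transcription factor ATF4 together with VLDLR and amino acid synthesis enzymes, was set beside the amino acid carriers. Of 19 genes, 14 were in the table and tested, and limma called 0 in any comparison, with 0 at an unadjusted p under 0.05 over the 5 groups, where 8.88% of all genes tested were. At that level 1 gene was higher and 1 lower in each of week 50 low minus week 32 (background 6.72% and 2.19%), week 72 low minus week 32 (3.29% and 4.4%) and week 72 high minus week 50 high (0.586% and 4.01%), and 0 in the other 7 differences. CHAC1, which degrades glutathione, is 1 gene of the list and ranged from 1.83 TPM in week 32 replicate 2 to 467 TPM in week 50 high replicate 3. The list as a whole summed to 10177 TPM in week 50 high replicate 3, within a range of 5481 to 17631 TPM over the 20 libraries. In high minus low at week 50, 3 of the 14 genes had a positive difference (median -0.16). Over all genes tested, 59.8% were positive in that comparison (median 0.05). Week 50 high replicate 3 had the highest listed TPM (852815) and the highest median-ratio factor (1.22) of all libraries. It held the highest value of 22 of the 162 members, and also their highest summed level (9379 TPM). The same count was not made over all genes tested, and a link to the list was not tested.

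SLC4A1, the anion exchanger of red cells and no member, had its highest value, 18.6 TPM, in week 50 low replicate 3, where the 5 erythroid markers summed to 3784 TPM.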
